A study of Anser cygnoides with 9 samples.

Results

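Goose ovarian granulosa cells exposed to either of a pair of gonadotropin-releasing hormone (GnRH) analogues were set against cells given neither. The 6 treated libraries, 3 from the agonist group and 3 from the antagonist group, formed one side and the 3 blank libraries the other, of 9 libraries in all. Genes were kept where at least 3 of the 9 libraries reached 1 TPM (a length-corrected share of transcripts), which left 832 of the 1371 genes listed. Within those 832, the genes of interest were the 364 whose agonist mean and antagonist mean both lay on the same side of the blank mean on the log2(TPM + 1) scale. Both differences use the same 3 blank libraries, so a shift of the blank libraries alone would place genes in this set.

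GnRH is a short peptide hormone of the hypothalamus that acts on the pituitary through a receptor coupled to Gq proteins, phospholipase C, calcium and MAP kinases. GnRH and its receptor are also made in the ovary, where the peptide acts locally on granulosa cells, the cells that surround the oocyte, respond to follicle-stimulating hormone and make steroids. An agonist occupies and activates the receptor, and prolonged exposure desensitises it, whereas an antagonist occupies it without activation. The comparison asks which transcripts stood apart from untreated cells whichever of these peptides was present.

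All libraries came from cultured granulosa cells of 40 week old Sichuan white geese, labelled as taken from small and large yellow follicles; the design text gives ovaries collected 2 h before laying and pre-hierarchical follicles of 4 to 12 mm beside preovulatory ones. The agonist group received alarelin acetate, the antagonist group received cetrorelix acetate, and the blank group was the control. The sources used here give neither the dose nor the exposure time of the sequenced cells. Nor do they say whether replicates were separate birds or cultures, so each p-value reflects library-to-library spread that may be technical.

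The granulosa identity could be checked with 1 of 24 markers, follistatin (FST), an activin-binding protein, at 39.8 to 53.4 TPM in treated libraries and 48.0 to 53.7 TPM in blank libraries. The other 23 were not analysed here. Of the markers of other cells that could be present, TCF21 (theca and stroma), CDH5 (endothelium) and ZP1 (oocyte) were below 1 TPM in every library, and no listed blood, immune or surface epithelium marker could be examined. In bulk RNA, fewer cells of a type and less RNA per cell cannot be told apart. The gene of the GnRH receptor was not analysed here.

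Of 7 library-wide values, summed TPM kept the sides apart, and none passed after adjustment. The genes listed are part of each transcriptome, and their summed TPM was 29842, 31032 and 28760 in the agonist libraries and 29460, 30988 and 29908 in the antagonist libraries, against 31764, 32645 and 32187 in the blank libraries. Every treated library lay below every blank library. The means were 29998 ± 884 TPM in treated cells (SD, n = 6) and 32199 ± 440.4 TPM in blank cells (SD, n = 3), and an exact two-sided permutation test over the 84 splits gave p = 0.0119, the smallest it can give, or 0.0833 after Benjamini-Hochberg adjustment over 7 library-wide values. TIMM10, a chaperone of the mitochondrial intermembrane space and the largest contributor, averaged 2687 TPM in treated cells and 3095 TPM in blank cells and made up 18.6% of the difference. MRPL41 (a mitochondrial ribosomal protein), PPIA (cyclophilin A), CEBPD (a transcription factor) and FTH1 (the ferritin heavy chain) added 9.56%, 8.80%, 8.09% and 6.18%. Of these 5 genes only CEBPD kept treated and blank libraries apart.

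**Figure D1:**
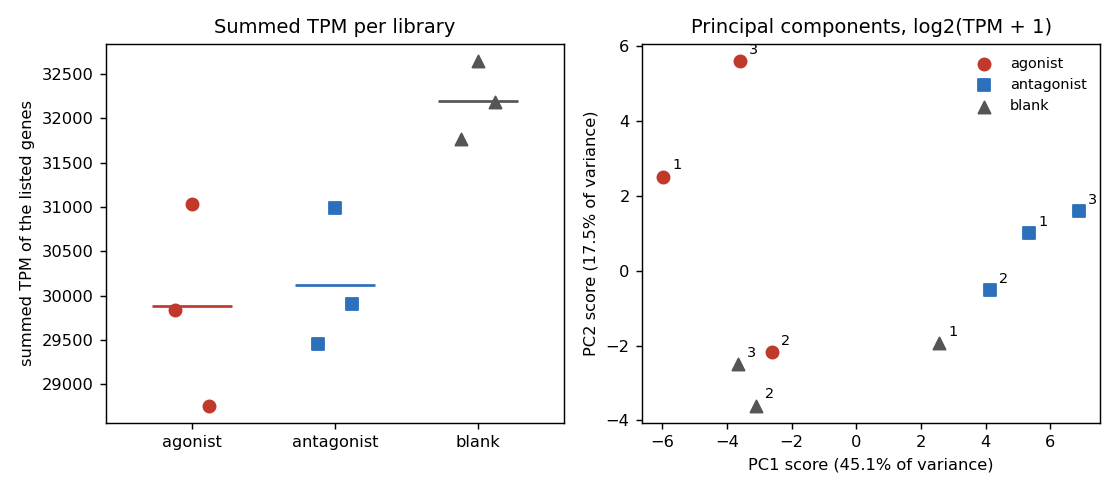
Library-wide values of the 9 libraries, with 1 point per library and a line at each group mean of summed TPM (left), and scores on the first and second principal components of log2(TPM + 1), labelled by replicate number (right). Summed TPM lies between 28760 and 31032 in treated libraries and between 31764 and 32645 in blank libraries, whereas on the second component agonist replicate 2, at −2.17, lies among the blank libraries.

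The second principal component, with 17.5% of the variance, had the smallest p of the first 3. Its scores were 2.52, −2.17 and 5.60 in the agonist libraries and 1.01, −0.51 and 1.59 in the antagonist libraries, against −1.94, −3.61 and −2.49 in the blank libraries. The sides overlapped through agonist replicate 2, and the exact permutation test gave p = 0.0595 (0.208 after adjustment over the 7 values). The libraries came from 3 flow cells, named in the sample descriptions. H75K3DMXX held 2 treated and no blank library, H77KGDMXX held 3 treated and 1 blank, and H773TDMXX held 1 treated and 2 blank, so treatment and flow cell were partly confounded.

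No gene of the 832 passed an adjusted p of 0.05 for either analogue against blank, a background of 0% (limma, Benjamini-Hochberg; smallest adjusted p = 0.16). At an unadjusted p under 0.05 there were 101 genes (12.1%), 50 higher and 51 lower in treated cells. Differences were small on the log2(TPM + 1) scale: 14 genes lay beyond 0.5 in either direction, 7 each way, and none beyond 1. That scale understates changes of low genes. With a pseudocount of 0.1 in place of 1, CEND1 and HYPK, described below, were at 1.17 and 1.08. The 95% interval of the difference lay within ±0.5, a 1.41-fold change of TPM + 1, for 684 genes (82.2%), and it reached 0.22 to either side of the estimate in the median gene. The count of 0 turned on single libraries, since leaving out agonist replicate 2 called 14 genes (1 higher, 13 lower) and leaving out blank replicate 1 called 21 (20 higher, 1 lower). Weighting the libraries by their estimated quality called 73 genes, 45 higher and 28 lower, with the lowest weights on blank replicate 1 (0.335) and agonist replicate 2 (0.428). Against blank taken singly, the agonist called 0 genes and the antagonist 92 (11.1%), and 213 (25.6%) were called between agonist and antagonist. These counts hold for the deposited scale, on which the median agonist minus antagonist difference over all tested genes was −0.21. The analogue medians moved with the scaling, as given below, and these calls were not counted under other scalings.

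Of the 832 genes, 26 (3.12%) had no overlap of the 6 treated and the 3 blank libraries. In 5 of them (0.601%) all treated libraries were higher, and in 21 (2.52%) all were lower. This split moved with the scaling of the libraries, to 17 higher and 11 lower after upper quartile scaling, 12 and 9 after quantile normalization, and 15 and 15 after median-of-ratios scaling. All 26 genes kept their sign under these scalings, which their choice made likely, and 11 of the 26 stayed without overlap under none of the scalings. Those that stayed without overlap under all 3 scalings were 5: HYPK, ITGB1BP1 and MANF among the higher genes, and UQCR10 and PDE12 among the lower ones. A gene whose 9 libraries are interchangeable lacks overlap with a probability of 0.0119 in each direction, a single split among the 84. Where the analogues or the flow cells differ, the libraries are not interchangeable and that share does not hold. The counts of genes without overlap were not tested against that share and are a description.

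HYPK encodes a small chaperone-like protein that binds huntingtin and the ribosome-bound N-terminal acetyltransferase NatA in human cells. It had 5.78, 4.49 and 9.73 TPM in the agonist libraries and 5.43, 4.76 and 10.04 TPM in the antagonist libraries, against 2.78, 2.56 and 3.61 TPM in the blank libraries. Every treated library was higher than every blank library, and replicate 3 was the highest in each of the 3 groups. Treated cells averaged 6.70 ± 2.51 TPM (SD, n = 6) and blank cells 2.98 ± 0.551 TPM (SD, n = 3), a difference of 0.90 ± 0.24 (SE) on the log2(TPM + 1) scale, or 1.87-fold in TPM + 1 (limma, adjusted p = 0.259). The agonist difference was 0.90 and the antagonist difference 0.91.

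ITGB1BP1, which binds the cytoplasmic tail of integrin beta 1 and restrains integrin activation, had the smallest p of all genes. Its values were 10.7, 14.9 and 14.3 TPM in the agonist libraries and 16.2, 13.7 and 16.1 TPM in the antagonist libraries, against 10.1, 8.72 and 8.88 TPM in the blank libraries. Agonist replicate 1 came close to blank replicate 1 and the other 5 treated libraries lay well above. The means were 14.3 ± 2.02 TPM in treated cells (SD, n = 6) and 9.22 ± 0.731 TPM in blank cells (SD, n = 3), a difference of 0.58 ± 0.11 (SE; limma, adjusted p = 0.16). In the RefSeq annotation ITGB1BP1 overlaps CPSF3, an endonuclease of pre-mRNA 3′ end processing, whose own difference was 0.13, and without knowledge of strand their reads cannot be told apart.

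MANF, a secreted protein of the endoplasmic reticulum that is made in response to unfolded proteins, had 10.4, 9.93 and 9.77 TPM in the agonist libraries and 9.86, 10.1 and 11.4 TPM in the antagonist libraries, against 9.21, 7.31 and 6.16 TPM in the blank libraries. The treated libraries were closely grouped and the blank libraries spread below them. The difference was 0.41 ± 0.11 (SE; limma, adjusted p = 0.259). The other members of the list of endoplasmic reticulum folding and stress genes, DAD1, RPN1, FKBP11, PDIA6, SPCS3, RPN2 and ATF3, lay between −0.18 and 0.12, and the stress-induced transcription factor ATF3 was at 0.912 TPM in treated cells and 0.992 TPM in blank cells.

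The remaining higher genes without overlap were TERF2IP, the telomere protein also called RAP1, and HDGFRP2, a chromatin reader related to hepatoma-derived growth factor. TERF2IP had 20.7 to 26.7 TPM in treated libraries and 18.4 to 20.03 TPM in blank libraries, a difference of 0.24 ± 0.09 (SE). HDGFRP2 had 13.6 to 16.7 TPM in treated libraries and 12.4 to 12.9 TPM in blank libraries, a difference of 0.20 ± 0.07 (SE; limma, adjusted p = 0.303 for both). These were narrow gaps, and TERF2IP overlapped KARS1 in the annotation. The antagonist mean was farther from blank than the agonist mean in all 5 higher genes, though for HYPK the differences were 0.90 and 0.91. Over all tested genes the median agonist minus antagonist difference was −0.21, so this order was not particular to the 5.

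**Figure D2:**
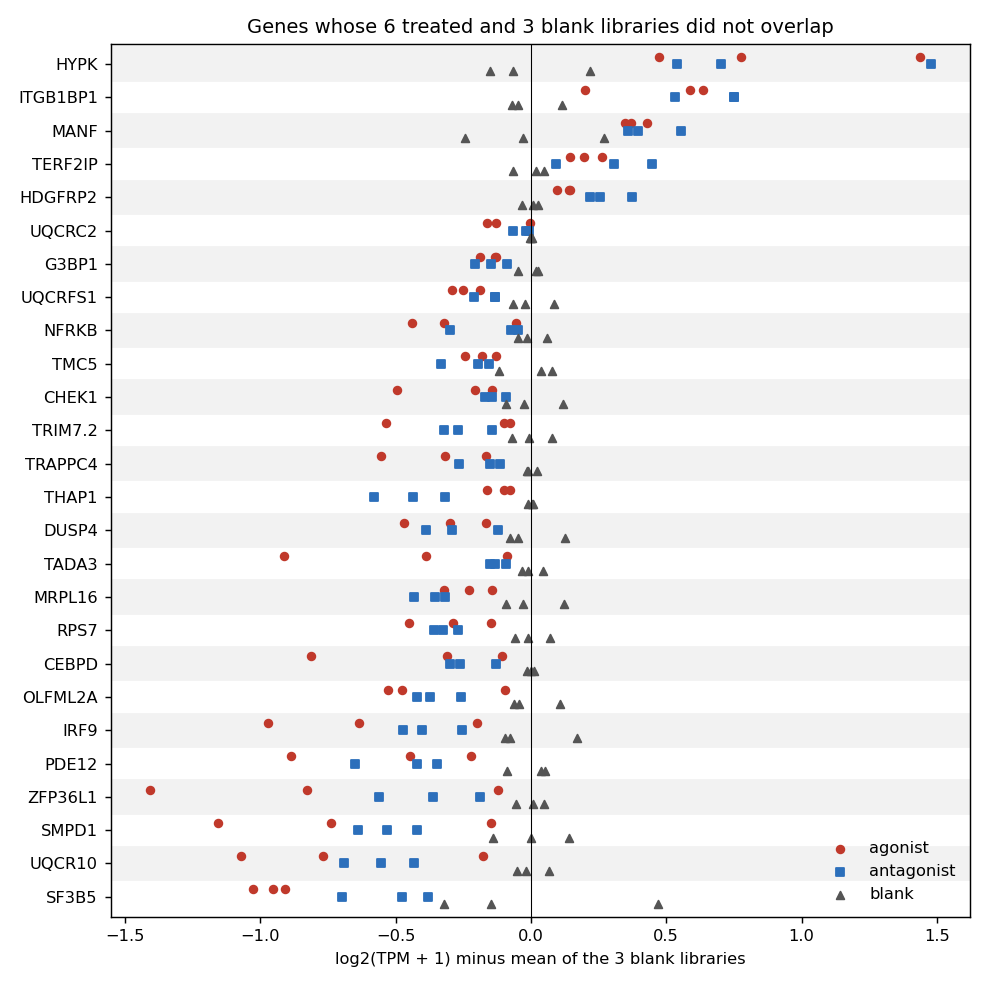
The 26 genes without overlap of the 6 treated and 3 blank libraries: each point is 1 library, as log2(TPM + 1) minus the mean of the 3 blank libraries (horizontal), with agonist, antagonist and blank points from top to bottom in each gene's row. HYPK lies at the top with a treated mean of 0.90 and SF3B5 at the bottom with −0.74, and in 21 of the 26 rows the treated points lie left of the blank points.

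Of the 10 tested genes of oxidative phosphorylation, 3 were lower without overlap (2.52% over all tested genes): UQCR10, UQCRFS1 and UQCRC2, subunits of complex III, which passes electrons from ubiquinol to cytochrome c. UQCR10, a small subunit, had 2.16, 3.76 and 1.57 TPM in the agonist libraries and 2.67, 2.34 and 2.99 TPM in the antagonist libraries, against 4.65, 4.32 and 4.21 TPM in the blank libraries. Its difference was −0.62 ± 0.16 (SE; limma, adjusted p = 0.259), and its level was low on the TPM scale. UQCRFS1, the Rieske iron-sulfur subunit, had 57.5 to 64.3 TPM in treated libraries and 67.4 to 75.03 TPM in blank libraries, a difference of −0.20 ± 0.07 (SE; limma, adjusted p = 0.303). UQCRC2, a core subunit, was separated by almost nothing: agonist replicate 2 had 35.246 TPM and blank replicate 1 had 35.253 TPM, and the difference was −0.07. Of the 3, UQCR10 was the only one without overlap under all 3 scalings. All 3 overlap another gene in the annotation: UQCR10 overlaps ZMAT5, UQCRC2 overlaps PDZD9, and UQCRFS1 overlaps a locus without a symbol. Of the 10 genes, 6 had both means below blank and 1 above, beside 24.8% and 19.0% of all tested genes, with a median of −0.10 against 0.02 over all tested genes. Shares of all genes differ by level: 14.1% lay below blank under 5 TPM, 44.4% at 20 to 100 TPM and 51.0% at 100 TPM or more. Lower genes without overlap also varied by level. They were 3 of 389 under 5 TPM, 4 of 268 at 5 to 20 TPM, 9 of 124 at 20 to 100 TPM and 5 of 51 above. UQCRFS1 and UQCRC2 lay at 20 to 100 TPM. None of the 10 genes was called, and NDUFA12 of complex I, the one with both means above blank, was at 1.33 TPM in treated cells and 0.899 TPM in blank cells.

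PDE12 trims poly(A) tails of mitochondrial transcripts and cleaves 2-prime-linked oligoadenylates. It had 19.65, 23.2 and 14.2 TPM in the agonist libraries and 20.05, 21.2 and 17.0 TPM in the antagonist libraries, against 25.5, 28.2 and 27.9 TPM in the blank libraries. The gap between agonist replicate 2 and blank replicate 1 was the narrowest. Treated cells averaged 19.2 ± 3.17 TPM (SD, n = 6) and blank cells 27.2 ± 1.46 TPM (SD, n = 3), a difference of −0.50 ± 0.13 (SE; limma, adjusted p = 0.259). MRPL16, a protein of the large mitochondrial ribosomal subunit, averaged 81.3 ± 5.78 TPM in treated cells and 100.3 ± 7.77 TPM in blank cells, a difference of −0.30.

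SF3B5, a small subunit of the SF3b complex that recognises the branch point of introns, was the lower gene with the smallest p. It had 131, 127 and 121 TPM in the agonist libraries and 177, 189.6 and 152 TPM in the antagonist libraries, against 342, 198 and 223 TPM in the blank libraries. Antagonist replicate 2 came close to blank replicate 2, and blank replicate 1 stood far above the other blank libraries. The difference was −0.74 ± 0.15 (SE; limma, adjusted p = 0.16), made of −0.96 for the agonist and −0.52 for the antagonist, which did not differ from each other at an adjusted p of 0.05 (limma, adjusted p = 0.0803). The 6 other tested spliceosome and RNA processing genes lay between −0.28 (TXNL4B, a U5 snRNP-like protein) and 0.17 (SART3, a recycling factor of U6).

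RPS7, a protein of the small cytosolic ribosomal subunit, had 20.8, 25.9 and 23.4 TPM in the agonist libraries and 22.8, 23.7 and 22.2 TPM in the antagonist libraries, against 30.3, 27.6 and 28.5 TPM in the blank libraries. The difference was −0.31 ± 0.08 (SE; limma, adjusted p = 0.259). In the annotation RPS7 overlaps COLEC11. Of 14 tested ribosomal protein genes RPS7 alone was without overlap, beside 3.12% of all tested genes. Both means lay below blank in 5 of the 14 and above in 2, beside 24.8% and 19.0% of all tested genes (51.0% and 7.84% of those at 100 TPM or more), and RPL37A, 1 of those 2, had a difference of 0.35 with treated and blank libraries overlapping. The most abundant member, RPL7, averaged 992 TPM in treated cells and 1048 TPM in blank cells.

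Of the 6 tested immediate early genes, ZFP36L1 alone was without overlap, on the lower side. Beside it stand 2.52% of all tested genes and 9 of 124 at 20 to 100 TPM, its level. ZFP36L1, which promotes decay of mRNAs with AU-rich elements, had 69.5, 114 and 46.1 TPM in the agonist libraries and 109, 96.4 and 83.8 TPM in the antagonist libraries, against 119, 125 and 128 TPM in the blank libraries. Treated libraries varied far more than blank libraries, and the difference was −0.58 ± 0.22 (SE; limma, adjusted p = 0.315). DUSP4, a phosphatase that inactivates MAP kinases, had 5.48 to 7.24 TPM in treated libraries and 7.50 to 8.78 TPM in blank libraries, a difference of −0.29 ± 0.10 (SE; limma, adjusted p = 0.303). G3BP1, a core protein of stress granules, lay at 43.3 to 47.0 TPM in treated libraries and 48.5 to 51.0 TPM in blank libraries. ZFP36L1, DUSP4 and G3BP1 all had overlapping libraries under each of the 3 scalings.

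CEBPD, whose share of summed TPM is given above, was also without overlap. It had 757, 873 and 534 TPM in the agonist libraries and 763, 859.5 and 784 TPM in the antagonist libraries, against 941, 948 and 931 TPM in the blank libraries. The blank libraries spanned a narrow band and agonist replicate 3 was far below the other treated libraries, with a difference of −0.32 ± 0.13 (SE; limma, adjusted p = 0.35). IRF9, the DNA-binding part of the complex that interferons activate, had 4.27 to 8.02 TPM in treated libraries and 8.68 to 10.7 TPM in blank libraries, a difference of −0.49 ± 0.15 (SE; limma, adjusted p = 0.303). TADA3, an adaptor of histone acetyltransferase complexes, and NFRKB, a subunit of the INO80 remodeller, lay at −0.29 (−0.18 without agonist replicate 3) and −0.21, and the checkpoint kinase gene CHEK1 at −0.21. THAP1, a zinc finger transcription factor, was the only 1 of the 26 called between the analogues, with −0.11 for the agonist and −0.44 for the antagonist (limma, adjusted p = 0.0261). Choosing genes without overlap favours small gaps between the analogues, and 25.6% of all tested genes were called.

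The lower genes also held SMPD1, the lysosomal acid sphingomyelinase that makes ceramide. It had 86.6, 130.8 and 64.5 TPM in the agonist libraries and 99.8, 108 and 92.7 TPM in the antagonist libraries, against 131.4, 159.8 and 145 TPM in the blank libraries. Agonist replicate 2 all but reached blank replicate 1, and the difference was −0.61 ± 0.18 (SE; limma, adjusted p = 0.303). The secreted matrix protein gene OLFML2A had 33.6 to 45.7 TPM in treated libraries and 46.7 to 52.7 TPM in blank libraries, and TRAPPC4, a subunit of the TRAPP vesicle tethering complex, 180.0 to 244 TPM in treated libraries and 262 to 269 TPM in blank libraries. SMPD1 overlaps APBB1 and TRAPPC4 overlaps RPS25 in the annotation. The other lower genes without overlap were TRIM7.2 and TMC5, at −0.24 and −0.21.

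The 21 lower genes ranged from −0.07 to −0.74 with a median of −0.29, and the 5 higher genes from 0.20 to 0.90 with a median of 0.41. Agonist replicate 3 was the farthest from blank in 14 of the 21 lower genes, and agonist replicate 2 the nearest in 11. Of the treated libraries these also had the lowest and the highest summed TPM, 28760 and 31032. Whether the order in the 21 genes goes beyond that was not tested. Within flow cells, the lower genes had a median of −0.24 in H77KGDMXX (3 treated, 1 blank) and −0.54 in H773TDMXX (1 treated, 2 blank), and the higher genes had medians of 0.22 and 0.48. The sign of these medians is fixed by the choice of genes without overlap; over all tested genes the medians were −0.01 in H77KGDMXX and −0.03 in H773TDMXX. The third flow cell held no blank library. A fit with flow cell as a term called 0 genes (limma, smallest adjusted p = 0.0705).

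Both analogue means lay above blank in 158 genes (19.0%) and below it in 206 (24.8%). Within them the smaller of the 2 differences exceeded 0.25 in 9 genes above and 26 below, and 0.5 in 3 above and 5 below. When each analogue had to differ from blank by itself, 17 genes (2.04%) had the larger of their p-values under 0.05 unadjusted, 5 higher and 12 lower, and none passed after adjustment (limma, smallest adjusted p = 1). Of these 17, 6 had overlapping libraries: C1QA, a chain of the first complement component, RPL37A, and on the lower side SP5, NAIF1, MCRS1 and EXOC8. C1QA had 0.425 to 1.97 TPM in treated libraries and 0 to 0.431 TPM in blank libraries, and no blank library reached 1 TPM. It passed the filter through its treated libraries alone, so it had to be higher there, and its place among the 17 is no support. SP5, a transcription factor gene induced by Wnt signals, had 4.71 to 13.1 TPM in treated libraries and 11.5 to 17.2 TPM in blank libraries, a difference of −0.85 ± 0.26 (SE; limma, adjusted p = 0.303), and overlaps MYO3B in the annotation. CEND1, a gene of neuronal cell cycle exit, had 1.74 to 9.67 TPM in treated libraries and 1.64 to 3.12 TPM in blank libraries, a difference of 0.96 ± 0.30 (SE; limma, adjusted p = 0.303), with antagonist replicate 3 inside the blank range. Among the 10 higher genes named for the smallest p, TRMT61B, SIRT7, AHSA2 and OGFOD2 differed between the analogues (limma, adjusted p under 0.05). Their differences from blank were 0.09, 0.03, 0.07 and 0.12 for the agonist and 0.58, 0.65, 0.55 and 0.50 for the antagonist. The others of the 10 did not differ at that threshold. DTWD1, also among them, was at 0.30, and on the lower side PGP was at −0.50 and LHFPL5 at −0.40.

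**Figure D3:**
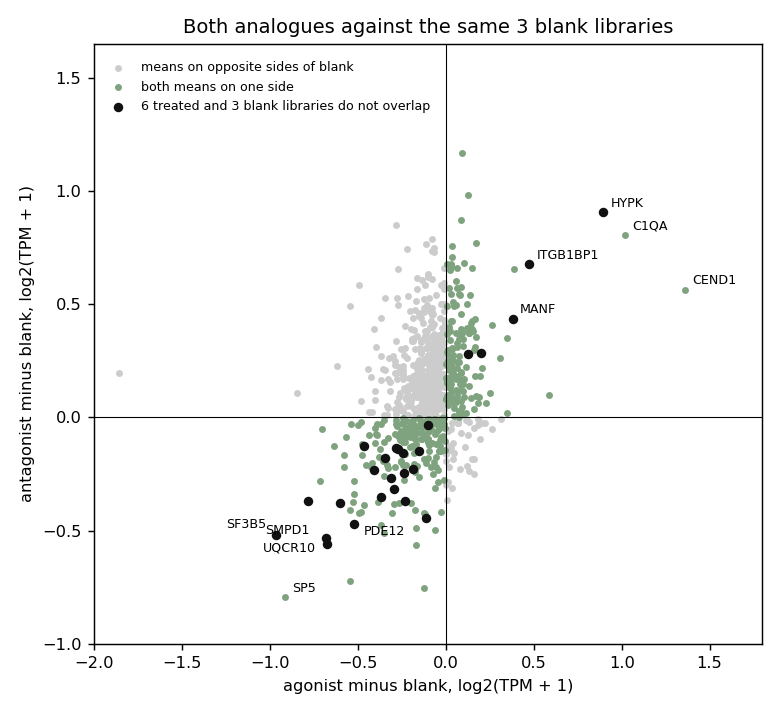
Agonist minus blank (horizontal) and antagonist minus blank (vertical) for the 832 tested genes, in log2(TPM + 1), with the genes lacking overlap marked and selected genes named. HYPK lies at 0.90 and 0.91 and SF3B5 at −0.96 and −0.52, while most genes lie in the upper left quadrant, below blank with the agonist and above it with the antagonist.

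For 468 genes the 2 analogue means lay on opposite sides of blank, and in 424 of them the agonist mean was the lower one. Over all tested genes the median difference was −0.08 for the agonist and 0.12 for the antagonist, so the mean of both cancelled to 0.02. The agonist median did not stay below blank under other scalings: it was 0.031 after upper quartile scaling, 0.015 after quantile normalization and 0.010 after median-of-ratios scaling, beside 0.064, −0.0088 and −0.0060 for the antagonist. EGR1, an immediate early transcription factor gene downstream of MAP kinases, had 77.9 to 95.3 TPM in agonist libraries, 136.6 to 142 TPM in antagonist libraries and 88.9 to 100.5 TPM in blank libraries. Its differences from blank were −0.16 for the agonist and 0.57 for the antagonist, which differed from each other (limma, adjusted p = 0.00363). DAD1, a subunit of the oligosaccharyltransferase, showed the reverse order, at 0.16 for the agonist and −0.25 for the antagonist (limma, adjusted p = 0.0156). The same comparison of the analogues called 26 of the 158 genes with both means above blank and 7 of the 206 with both means below, against 25.6% of all tested genes. Choosing genes with both means on one side of blank favours small gaps between the analogues. These counts are therefore partly fixed by the choice and are no result about the genes.

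The share of genes below blank varied with expression level. Of the 389 genes with a mean under 5 TPM, 22.9% had both means above blank and 14.1% below. At 5 to 20 TPM (268 genes) the shares were 18.3% above and 26.1% below, and at 20 to 100 TPM (124 genes) 12.9% above and 44.4% below. Of the 51 genes of 100 TPM or more, 7.84% were above and 51.0% below. The agonist median moved little across these bands, between −0.07 and −0.10, whereas the antagonist median was 0.19, 0.09, −0.02 and −0.16 from the lowest band to the highest. After median-of-ratios scaling the highest band held 4 genes above and 19 below, and the lowest band 151 above and 76 below. Quantile normalization, which gives all libraries the same distribution, left 17 above and 14 below in the highest band and 112 above and 121 below in the lowest.

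**Figure D4:**
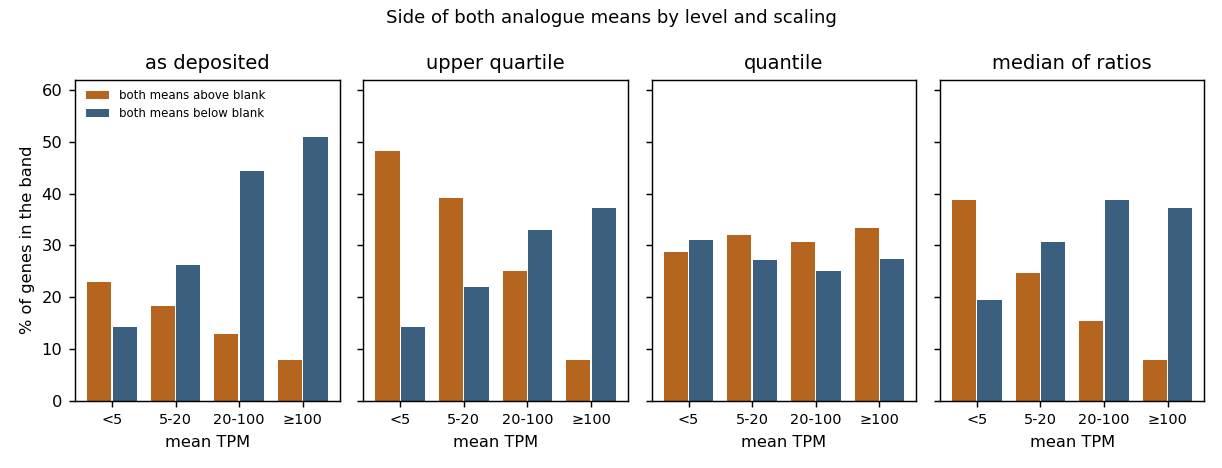
Percent of tested genes with both analogue means above or below blank, by mean TPM of the gene (4 bands; 389, 268, 124 and 51 genes on the deposited scale), in 1 panel each for the deposited values and 3 scalings. On the deposited scale the share below blank is 14.1% in the lowest band and 51.0% in the highest, a contrast that quantile normalization removes.

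Pathways of GnRH action and of granulosa function were read through 25 gene lists, of which 20 had a tested member; no member was called in either direction. Of the 6 immediate early genes tested (JUN, RHOB, EGR1, ZFP36L1, KLF2 and ATF3), 3 had both means below blank and none above, beside 24.8% and 19.0% of all tested genes, with a median of −0.06. Among all tested genes at 100 TPM or more, the level of JUN, RHOB and EGR1, the shares were 51.0% and 7.84%. JUN, an AP-1 subunit, averaged 1049 TPM in treated cells and 1119 TPM in blank cells. From the list of GnRH receptor signalling genes, PLA2G4A, which releases arachidonic acid, had a difference of 0.17, the mean of −0.12 for the agonist and 0.47 for the antagonist; it overlaps PTGS2 in the annotation. The MAPK feedback list held DUSP4 and ERRFI1, an inhibitor of the EGF receptor, at −0.29 and −0.04. The ERRFI1 value is the mean of −0.39 for the agonist and 0.31 for the antagonist, which differed from each other (limma, adjusted p = 0.0117).

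The 5 tested genes of TGF-beta, BMP and activin signalling had a median of −0.07. ID4, an inhibitor of basic helix-loop-helix factors, had the widest difference of them at −0.44, with 5.52 to 11.5 TPM in treated libraries and 9.23 to 10.9 TPM in blank libraries, so the sides overlapped. BMP4 averaged 33.5 TPM in treated cells and 34.2 TPM in blank cells. Genes of cell cycle and DNA replication lay close to blank in the mean of both analogues: all 6 tested (MCM6, TYMS, CCND1, GINS3, CCND2 and GINS4) were between 0.02 and 0.08. In 5 of the 6 the analogue means lay on opposite sides of blank, as in 468 of all 832 tested genes. The medians of the 6 were −0.06 for the agonist and 0.13 for the antagonist, beside −0.08 and 0.12 over all tested genes. Of the cell cycle inhibitors, CDKN1B averaged 410.3 TPM in treated cells and 401 TPM in blank cells, and BTG1 averaged 36.2 TPM in treated cells and 42.6 TPM in blank cells. A single steroid synthesis gene, the sterol carrier SCP2, could be tested, at 0.05, and the sterol genes DHCR7, ACAT1 and GGPS1 lay between −0.04 and 0.11. In all 3 sterol genes the analogue means lay on opposite sides of blank, beside 468 of all 832 tested genes. DHCR7 was at −0.24 for the agonist and 0.17 for the antagonist, and ACAT1 at −0.08 and 0.23.

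Among matrix, adhesion and actin genes the median of 6 was 0.04; besides ITGB1BP1, fibronectin (FN1) was at 1.75 TPM in treated cells and 1.197 TPM in blank cells and SPARC at 586 TPM in treated cells and 626 TPM in blank cells. Follicle growth factors and receptors had a median of 0.13 over 6 genes. In 5 of the 6 the analogue means lay on opposite sides of blank, as in 468 of all 832 tested genes. The medians were −0.09 for the agonist and 0.39 for the antagonist, beside −0.08 and 0.12 over all tested genes. The agonist median over all tested genes did not stay below blank under other scalings. The angiogenic factor gene VEGFA was at 0.15, its agonist mean below blank and its antagonist mean above it. The innate immune list (CEBPD, IRF7, TRAF6, MYD88 and IL8) had a median of −0.10, with 3 of 5 below blank and none above, beside 24.8% and 19.0% of all tested genes. The redox and iron list had a median of 0.15 over 7 genes, of which 5 had analogue means on opposite sides of blank, beside 468 of all 832. Its medians were −0.16 for the agonist and 0.30 for the antagonist, and SIRT3 was at −0.28 for the agonist and 0.85 for the antagonist. The list of heat shock genes and cytosolic chaperones held the chaperone-like HYPK at 0.90 and the heat shock gene HSPB8 at −0.33. The 6 proteasome genes had a median of 0.02, and DAD1 was the only tested apoptosis gene.

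**Figure D5:**
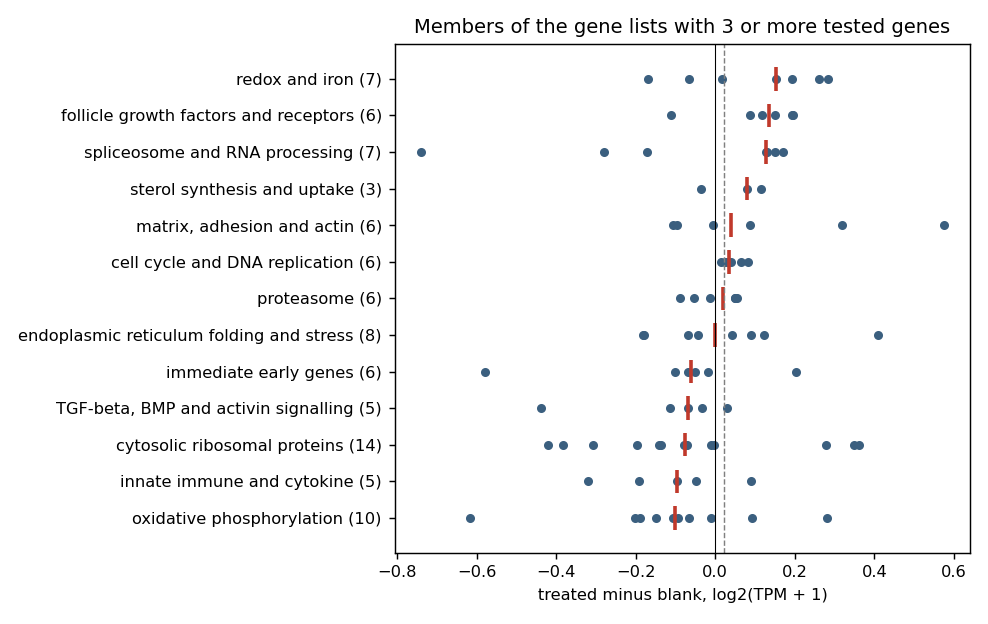
Difference of treated minus blank in log2(TPM + 1) for the gene lists with 3 or more tested members (number in brackets), with 1 point per gene, a bar at the list's median and a dashed line at the median of all tested genes (0.02). ITGB1BP1 at 0.58 and SF3B5 at −0.74 lie at the extremes.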

How the data were processed

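Strand, genome build and annotation were not given in the sources used here. Trizol extraction and NEBNext Ultra library kits are named per the labels' protocols. Tools named in the submitters' processing notes, with no role attached, are StringTie 1.2.2, Cuffdiff, Cufflinks 2.2.1, TopHat2 2.1.0 and CASAVA 1.8.2. The authors deposited a table of TPM for 1371 genes in 9 libraries. Since TPM carries no depth, the reads behind each value are unknown.

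TPM was transformed to log2(TPM + 1), which understates changes of low genes. Genes reaching 1 TPM in at least 3 libraries were fitted in limma 3.58.1 (R 4.3.3) with 3 groups, a variance trend and Benjamini-Hochberg adjustment over 832 genes; calls were at an adjusted p under 0.05. The contrast was the mean of the agonist and antagonist means minus the blank mean, which equals the mean of the 6 treated libraries minus that of the 3 blank ones. The agonist and antagonist differences share the blank libraries. The fit was tested on simulated data. Library-wide values used exact permutation tests.

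Members, lists and tests were chosen with earlier results of these data known. Named genes were, in each direction, the 10 of 5 TPM or more with both means on that side and the smallest p (none passed), the 6 without overlap and with the largest smaller difference, the 2 most abundant tested members of each list (not all are reported here), and 3 in each direction of the agonist whose analogue differences had opposite signs. Those 3 in each direction had the smallest adjusted p for agonist against antagonist. Other genes named, among them TIMM10, MRPL41, PPIA, the remaining genes without overlap, list members beyond those 2, C1QA, RPL37A, NAIF1, MCRS1 and EXOC8, were chosen after their values were seen. RefSeq symbols of a Taihu goose assembly matched 1253 of the 1371 names and were used only to find overlapping genes; 21 of 67 matched named genes overlap another. Alternatives were other pseudocounts (0.5, 0.1), filters, scalings, library weights, flow cell and replicate terms, and each library left out; flow cell fits on 7 libraries were chosen after seeing the data.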

Additional observations from a re-analysis of the deposited data

Results flagged for a closer look

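In 3 genes agonist replicate 3 stood apart from the other 5 treated libraries, with a gap to its neighbour above Dixon's 95% limit. As a share of the range of the 6 the gap was 0.71 for CEBPD, 0.72 for CHEK1 and 0.637 for TADA3. Without that library the TADA3 difference for either analogue was −0.18, against −0.29 with it. Of 75 genes examined 3 met this, and chance alone flags about 1 in 20 groups. Agonist replicate 3 also had the highest score on the second principal component, and the part of this library in the 3 genes was not tested.

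At 21 of the 75 genes (28%, against 25.6% of all tested genes) the agonist and antagonist differences from blank differed from each other in limma at an adjusted p under 0.05, 8 higher and 13 lower with the agonist. HYI, EGR1, SLC25A28, DAD1, FKBP11 and H2AFZ were among the 75 because of a small p in this same comparison. Their place among the 21 was fixed by that choice, and 28% is no result about the 75 genes. The agonist minus antagonist differences below 0 were SLC25A28 −0.928, HYI −0.865, EGR1 −0.731, ERRFI1 −0.705, SIRT7 −0.624, PLA2G4A −0.591, PDGFA −0.557, TRMT61B −0.487, AHSA2 −0.474, ANGPTL4 −0.386, OGFOD2 −0.384, ACAT1 −0.312 and FST −0.273. Those above 0 were TXNL4B 0.439, DAD1 0.41, FKBP11 0.371, PSMB3 0.369, H2AFZ 0.346, THAP1 0.332, RPS3A 0.31 and ATP5J2 0.303. Their adjusted p in limma ran from 0.00302 (HYI) to 0.0467 (FST). HYI, the putative hydroxypyruvate isomerase, lay at −0.08 with the agonist and 0.79 with the antagonist, relative to blank.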

How the results depend on the processing

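Genes called numbered 0 under both other pseudocounts, without a filter, at a mean of 5 TPM or more, without a variance trend, with 2 sides in place of 3 groups and with flow cell as a term; 1 was called after upper quartile scaling and after median-of-ratios scaling (ITGB1BP1), after quantile normalization (HYI) and with the replicate block (HYPK), and 73 with library weights. List members called were 1, 1, 1 and 13 with upper quartile, median-of-ratios, the replicate block and library weights. Leaving out each library gave 0 to 21 genes called and 0 to 4 list members called; none passed both against blank (0 to 0).

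Both means lay above blank in 309 genes without a filter, 69 at a mean of 5 TPM or more, and 328 after upper quartile, 253 after quantile and 240 after median-of-ratios scaling. All 6 treated libraries were above all blank libraries in 8 genes without a filter and in 17, 12 and 15 under the 3 scalings, and below in 11 (upper quartile) and 9 (quantile). The median over all genes was −0.08 for the agonist and 0.12 for the antagonist as deposited, 0.031 and 0.064 after upper quartile scaling, 0.015 and −0.0088 after quantile normalization, and 0.010 and −0.0060 after median-of-ratios scaling, so the agonist median changed sign under every scaling.

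With 1 library left out, these ranges were 5 to 54 above, 22 to 44 below, 114 to 311 with both means above, 184 to 232 with both means below, −0.0043 to 0.066 for the median and −2417 to −1952 for summed TPM. Leaving out a library can only add genes without overlap, so the counts above and below could not fall. Blank replicate 1 gave the 54, 44 and 311; without agonist replicate 2, 39 lay below, without agonist replicate 1, 16 lay above, and without blank replicate 2 or 3, 9 lay above (36 below without blank replicate 3). The median over all genes was also below 0 at a mean of 5 TPM or more (−0.024).

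Of 69 genes followed, 14 changed sign in 35 comparisons, 1435 comparisons kept direction and side, and 43 kept direction and passed the threshold. The sign-changing genes lay within 0.096 of 0 as deposited, and none was called in those comparisons (limma, smallest adjusted p = 0.533). None was among the 26 without overlap, whose sign is fixed by their choice when 1 library is left out. Upper quartile scaling gave H2AFZ 0.026 and BMP4 0.0031. Quantile normalization gave DAD1 0.067, H2AFZ 0.084, RHOB 0.053, BMP4 0.016, PSMB3 0.037, PSMA2 0.030, RPS3A 0.10 and SPARC 0.047. Flow cell as a term gave ERRFI1 0.083, MCM6 −0.0012, TYMS −0.017, CDKN1B −0.013 and RPS3A 0.024; on the 7 libraries of the flow cells with both sides it gave DAD1 0.0022, ERRFI1 0.098, TYMS −0.012, CDKN1B −0.011, PSMB3 0.0052 and RPS3A 0.027. Library weights gave DHCR7 0.015. With 1 library left out, DAD1 ran from −0.079 to 0.0018, H2AFZ from −0.059 to 0.052, RHOB from −0.13 to 0.0031, ERRFI1 from −0.094 to 0.036, BMP4 from −0.099 to 0.052, SCP2 from −0.024 to 0.093, DHCR7 from −0.15 to 0.070, MCM6 from −0.034 to 0.064 and PSMB3 from −0.14 to 0.046.

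The labels name no pairing of samples by replicate number, and the main fit used none. In the data 3 of 9 same-numbered pairs correlated over 0.1, and 7 of 9 libraries correlated best with their own number. Correlations ran from −0.117 to 0.216 in same-numbered pairs and from −0.255 to 0.19 in differently numbered ones. Some libraries would match their own number best without any pairing, and neither count was tested. Whether the numbers pair the samples is therefore unknown, and the call of HYPK with the replicate block depends on it. TPM gives no reads, so what depth limits cannot be stated; genes near 1 TPM, such as C1QA, are least certain.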
